A study of Homo sapiens with 16 samples.

Results

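The 42 genes described here take a cell from the start of mitosis to the separation of its daughter cells. They are a list of names chosen for their known functions. The members and their roles were set with earlier results of these data known. By role, 8 were genes of mitotic entry, 9 of the spindle checkpoint and anaphase and 5 of the kinetochore. Another 5 were of spindle motors and chromosome structure, 4 of the chromosomal passenger complex and 11 of cytokinesis. All 42 were found among the 35052 genes that were counted, and all 42 were among the 17559 genes that passed the filter on low counts. RNA was taken from K562, an established human leukaemia cell line with a wild-type genotype, exposed for up to 72 h to phorbol 12-myristate 13-acetate (PMA, 25 nM), an activator of protein kinase C under which K562 cells take on features of megakaryocytes. The 8 groups were the untreated cells (0 h) and cells kept in PMA for 0.5, 1.5 or 3 h, for 6 h, and for 24, 48 or 72 h, with 2 libraries each and 16 in all. The medium was replaced after 24 and 48 h. The labels do not say that the 2 libraries of a time point came from separate cultures, so the p-values measure only the spread between these samples, and they name no sorting of cells by cell cycle stage or DNA content.

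Mitosis begins when cyclin B and its kinase CDK1 are switched on, with CDC25 phosphatases, PLK1 and Aurora A (AURKA) as helpers. Kinetochores then attach chromosomes to the spindle, the checkpoint proteins of the BUB and MAD families hold back the anaphase-promoting complex until attachment is complete, and CDC20 then turns that complex on, which frees separase (ESPL1) from securin (PTTG1). The chromosomal passenger complex moves from the centromeres to the middle of the spindle, where PRC1, KIF4A and the pair KIF23 and RACGAP1 bundle microtubules, ECT2 activates the GTPase RHOA, anillin (ANLN) scaffolds the contractile ring, and CEP55 gathers the proteins that cut the last bridge between the daughters. Megakaryocytes become polyploid by endomitosis, in which cells enter mitosis but do not complete cytokinesis, and for that reason the genes of entry and of cytokinesis are set side by side below. Many of these genes are transcribed late in the cell cycle through a promoter element called the CHR, often with CCAAT boxes bound by the factor NF-Y upstream, under repressors and activators that include the DREAM complex, MYBL2 and FOXM1.

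The promoters of 8 members are shown because these genes carry the contrasts described below: CCNA2, CCNB2, PLK1, CENPA and CIT were lower at 6 h, while KIF14, ANLN and CEP55 were higher. Each run covers 110 bases before to 25 bases after the RefSeq start (GRCh38.p14), 5′ to 3′ on the strand of the gene. Capitals mark the CHR letters TTTGAA, which read TTCAAA on the opposite strand. They also mark the NF-Y box CCAAT, which reads ATTGG on the opposite strand. The windows are CCNA2 chr4:121823859-121823993 (minus strand), CCNB2 chr15:59105036-59105170 (plus strand), PLK1 chr16:23678779-23678913 (plus strand), CENPA chr2:26785946-26786080 (plus strand), CIT chr12:119877296-119877430 (minus strand), KIF14 chr1:200620727-200620861 (minus strand), ANLN chr7:36389752-36389886 (plus strand) and CEP55 chr10:93496502-93496636 (plus strand).
CCNA2: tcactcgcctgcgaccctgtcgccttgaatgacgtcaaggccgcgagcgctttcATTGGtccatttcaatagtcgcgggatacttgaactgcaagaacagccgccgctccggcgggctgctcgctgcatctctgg
CCNB2: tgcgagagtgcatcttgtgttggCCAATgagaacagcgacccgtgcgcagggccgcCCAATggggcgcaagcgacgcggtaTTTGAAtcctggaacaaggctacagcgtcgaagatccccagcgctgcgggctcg
PLK1: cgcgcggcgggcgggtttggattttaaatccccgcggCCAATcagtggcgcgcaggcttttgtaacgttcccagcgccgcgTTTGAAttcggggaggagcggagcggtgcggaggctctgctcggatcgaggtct
CENPA: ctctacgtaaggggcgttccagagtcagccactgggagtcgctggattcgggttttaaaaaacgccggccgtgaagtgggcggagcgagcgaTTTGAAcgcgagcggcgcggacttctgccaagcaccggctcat
CIT: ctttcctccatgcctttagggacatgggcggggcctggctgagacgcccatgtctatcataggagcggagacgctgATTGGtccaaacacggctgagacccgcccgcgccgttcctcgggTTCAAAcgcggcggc
KIF14: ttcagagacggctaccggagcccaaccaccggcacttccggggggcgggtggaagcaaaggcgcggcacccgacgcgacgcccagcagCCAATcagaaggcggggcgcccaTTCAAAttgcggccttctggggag
ANLN: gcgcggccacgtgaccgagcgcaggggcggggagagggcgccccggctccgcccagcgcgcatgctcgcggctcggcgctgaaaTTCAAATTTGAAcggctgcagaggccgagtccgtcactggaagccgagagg
CEP55: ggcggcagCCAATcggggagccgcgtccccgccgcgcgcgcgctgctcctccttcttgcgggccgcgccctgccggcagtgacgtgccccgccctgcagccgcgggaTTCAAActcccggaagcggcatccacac
CHR letters stood in 7 of these 8 windows and were not found in the CCNA2 window, and ANLN held a pair of them side by side on opposite strands. Only these exact letters were searched, so a variant of the element would be neither marked nor counted. RefSeq promoters of 300 bases, from 250 before to 50 after the start, were at hand for 35 members, with 45 starts in all. CHR letters on either strand occurred in 26 of the 35 (74.3%), against 4961 of 27305 genes (18.2%). They occurred in 4 of 7 mitotic entry members and 9 of 10 cytokinesis members. Of the 39 CHR matches, 27 lay within 50 bases of a start. The CCAAT box occurred in 29 of the 35 (82.9%), against 39.7% of all genes, and the letters of the 2 elements can share at most 1 base. A letter match describes the sequence and shows no binding, and genes that were lower and genes that were higher at 6 h both held these letters.

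The libraries held 27285773 to 54056289 estimated reads. Levels are in CPM (counts scaled to library size). All 10 K562 marker genes passed the filter; 8 of them fell and 2 rose at 24 h, and KLF1, an erythroid factor, had 43.8 and 61.4 CPM at 0 h, 1.37 and 1.38 after 6 h, 1.32 and 1.68 after 24 h and 2.9 and 2.84 after 72 h. Of 10 markers of other cell types, KRT5, ALB, INS and CD3E stayed at or under 0.344 CPM and CDH5 at or under 1.56 CPM, while PTPRC, EPCAM, COL1A1 and PECAM1 reached 48.5 to 249 CPM in some library. Some of these markers changed over the same hours as the members. COL1A1 (a collagen gene) had 3.1 and 3.83 CPM at 0 h, 3.88 and 4.25 after 6 h, 108 and 109.7 after 24 h and 196 and 218 after 72 h. PECAM1 rose at 72 h (1.18), PTPRC fell at 6 h (−1.02) and EPCAM rose at 6 h (0.88) and was lower than at 0 h by 72 h (−1.33). Their part in the results was not tested. The 0 h libraries stood apart from each other. Their difference followed the GC content of transcripts at r = 0.73 across 9983 genes, which are not independent replicates, against −0.38 to 0.56 at the 7 other time points. Among the members the second 0 h library differed from the first by −1.07 to 0.61 (log2), and the members with the lowest GC content, KIF20B, CENPE, CDK1 and TTK, were lower there: KIF20B had 78.6 and 38.6 CPM, CENPE 141 and 73.6 CPM, CDK1 182 and 126 CPM and TTK 77.5 and 36.9 CPM in replicates 1 and 2. Comparisons with 0 h are therefore also given without 1 of these libraries, with 0.5 h as the baseline, or with the GC trend of each library removed, for the calls described in full. In bulk RNA, fewer cells in mitosis and less RNA per mitotic cell cannot be told apart.

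Against untreated cells, the median member stood above its 0 h level through 3 h, below it at 6 h, lowest at 24 h and between these at 72 h. The median member stood at 116% of its 0 h level after 0.5 h, 124% after 1.5 h and 110% after 3 h. It was at 86.8% after 6 h, 57.4% after 24 h, 74.8% after 48 h and 70% after 72 h. The lowest mean was at 24 h for 35 of the 42 members. The 7 exceptions were CDC25B, BUB3 and MAD2L1, lowest at 6 h, UBE2C and ESPL1, lowest at 72 h, and AURKA and ANLN, lowest at 0 h. The highest mean was at 1.5 h for 18 members. By the edgeR test of any difference between the 8 time points, 41 of 42 members changed, against 82.9% of all genes tested; BUB3, which carries checkpoint proteins to kinetochores, did not pass (edgeR adjusted p 0.122).

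**Figure D1:**
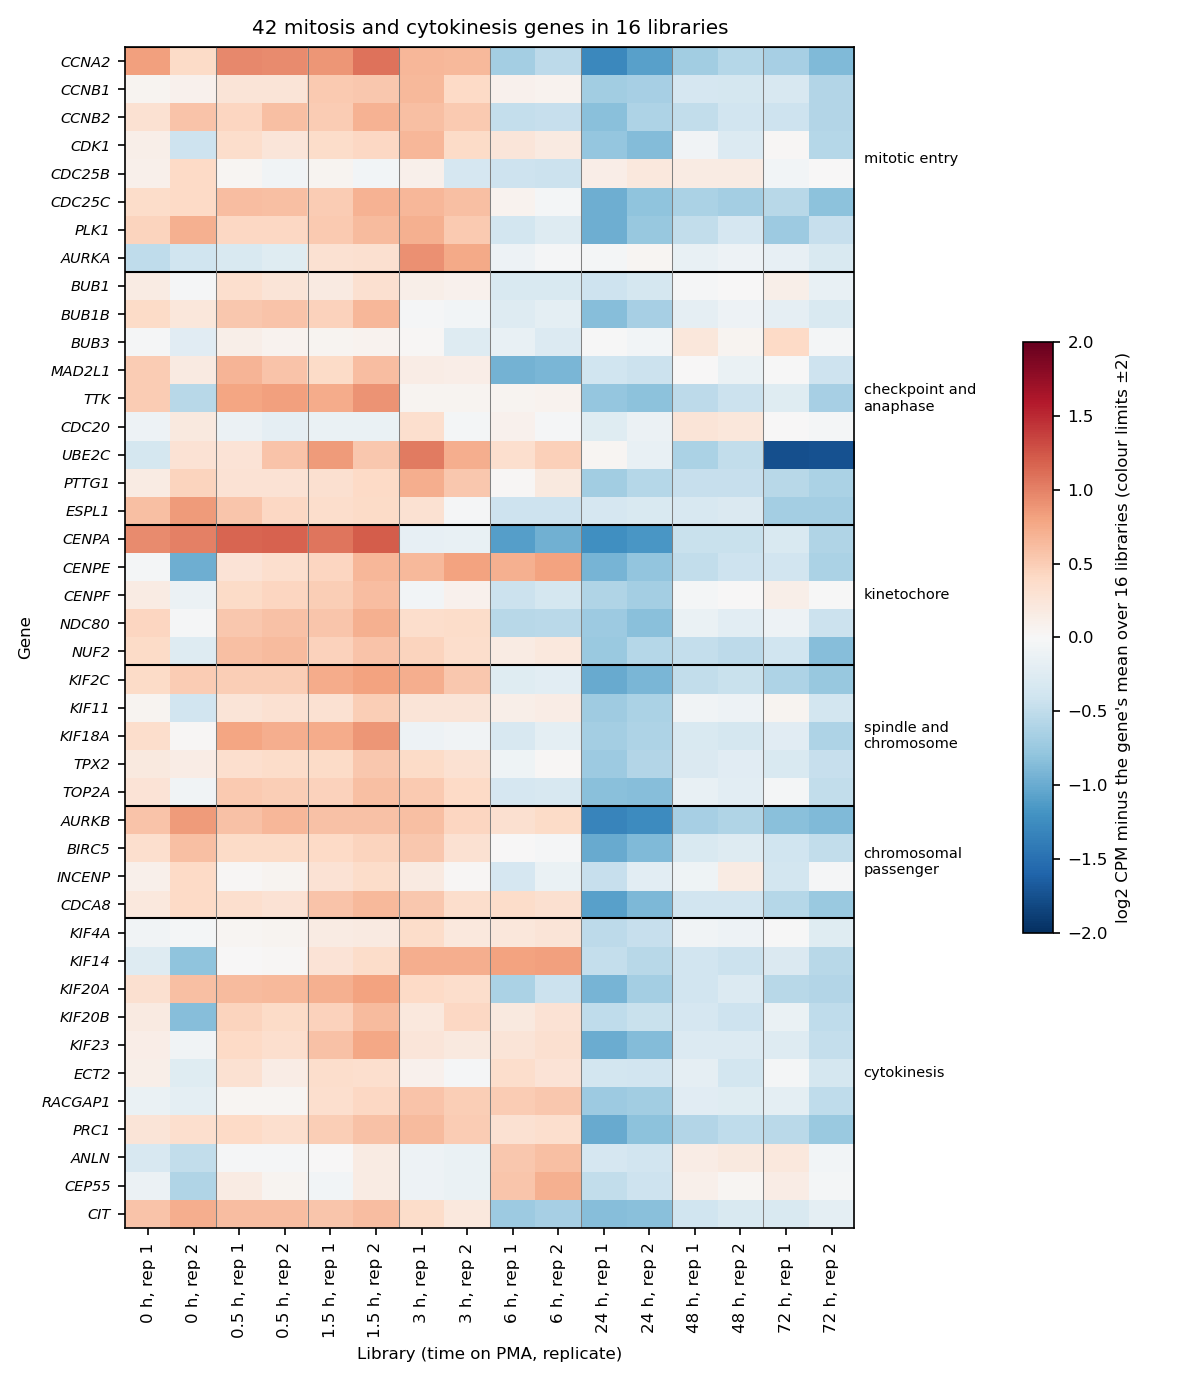
Heatmap of 42 genes (rows, grouped by role) in 16 libraries (columns, time on PMA and replicate); colour is log2 CPM minus the gene's own mean over the 16 libraries, with limits of ±2. Blue prevails in the 24 h columns, where 35 genes had their lowest mean, while KIF14, ANLN, CEP55 and CENPE are at their reddest at 6 h.

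Levels per transcript length, in TPM (counts scaled to transcript length and library), differed widely between members at 0 h. PTTG1 (securin) had the highest mean, 200.3 TPM, followed by TOP2A (topoisomerase II) at 166 TPM and KIF2C (a motor that takes microtubules apart) at 166 TPM. CEP55 at 11.8 TPM and UBE2C at 2.32 TPM were lowest. UBE2C, the ubiquitin-conjugating enzyme of the anaphase-promoting complex, lay between 0.279 and 1.95 CPM over all libraries. The reason for so low a level of a mitotic gene, and whether these counts hold all of its reads, was not tested.

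The first hours were compared with 0 h to see when the members began to move. A member was called changed at an edgeR adjusted p under 0.05 over all 17559 genes. At 0.5 h no member was called, against 0.171% of all genes (0.165% higher and 0.0057% lower). An unadjusted p under 0.05 was seen for 18 members, and the DESeq2 test called 4. The share of all genes passing either of these cuts is not given here, so neither count is read as a trait of the members. At 1.5 h 16 members rose and 1 fell, against 17.1% of all genes called (9.05% higher and 8.05% lower). The rises ran through all 5 spindle and chromosome members, 5 of 11 cytokinesis members, 3 of 5 kinetochore members, 2 of 8 entry members and TTK, a checkpoint kinase. ESPL1 was the member that fell. At 3 h 12 members were called higher and 5 lower, against 42% of all genes called (21.5% higher and 20.5% lower). Most of the early rises lost their call in some alternative. Leaving out a library leaves 1 sample at that time point, so a lost call need not mean a changed value. With 0 h replicate 2 left out 7 members were called at 1.5 h. Omitting 1.5 h replicate 1 left 10, omitting 1.5 h replicate 2 left 4, and 1 was called with 0.5 h as the baseline. At 0.5 h 18 were called without 0 h replicate 1, and at 3 h 10 were called without 3 h replicate 1. Of the rises at 1.5 h, only that of AURKA kept its call in every one of 13 alternatives. These include leaving out either 0 h library, but here and below no library of another time point was left out in them. At 3 h AURKA, KIF14 and RACGAP1 kept a call of a rise, and CENPA and ESPL1 kept a call of a fall, in every one of 13 alternatives.

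AURKA, the centrosomal kinase that helps to activate PLK1, had the largest rise among the entry genes at 1.5 and 3 h. It (ENSG00000087586, chromosome 20, 56369389 to 56392337) had 98.1 and 106 CPM at 0 h, 112 and 117 after 0.5 h, 171 and 174 after 1.5 h and 261 and 234 after 3 h. It then had 129.6 and 136 after 6 h, 135 and 142 after 24 h, 126 and 129 after 48 h and 123 and 112 after 72 h, with replicates 1 and 2 in that order here and below. Both libraries from 0.5 h onward were above both 0 h libraries, and the 3 h libraries were the highest. The log2 fold change was 0.76 (SE 0.09, adjusted p 7.19e-05 by edgeR) at 1.5 h and 1.28 (SE 0.09, adjusted p 7.05e-08 by edgeR) at 3 h. CENPA, the histone H3 variant that marks centromeres, moved the other way at 3 h. It (ENSG00000115163, chromosome 2, 26764289 to 26801067) had 37.1 and 38.6 CPM at 0 h, 43.3 and 43.6 after 0.5 h, 40.5 and 44.4 after 1.5 h and 17.2 and 17.4 after 3 h. It then had 8.92 and 9.84 after 6 h, 8.2 and 8.57 after 24 h, 14.2 and 14.1 after 48 h and 15.5 and 12.7 after 72 h. It was close to its 0 h level through 1.5 h, and every library from 3 h onward lay below every earlier one. The log2 fold change was −1.13 (SE 0.11, adjusted p 1.61e-06 by edgeR) at 3 h and −2.01 (SE 0.11, adjusted p 3.28e-09 by edgeR) at 6 h. CENPA shares 6.96% of its exon bases with SLC35F6 on the same strand. Exons of 16 members overlap those of another annotated gene, and whether the counting used strand is not given in the sources used here.

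At 6 h the roles parted. Of the 8 mitotic entry genes 5 fell and 1 rose, with a median log2 fold change of −0.52, whereas of the 11 cytokinesis genes 7 rose and 2 fell, with a median of 0.36. The chromosomal passenger genes had 3 of 4 lower (median −0.42), the spindle and chromosome genes 3 of 5 lower (−0.44), the kinetochore genes 3 lower and 1 higher of 5 (−0.42), and the checkpoint and anaphase genes 4 of 9 lower (−0.21). In all, 9 members rose and 20 fell at 6 h, where 27.8% of all genes were called higher and 29.4% lower, and the median of all genes was 0. The medians describe the listed genes, with no test of the difference between roles, because genes of 1 set of libraries are not replicates. Of these calls 14 of 20 falls and 4 of 9 rises were kept in every one of 13 alternatives. No 6 h library was left out in them. The AURKA rise was lost with libraries scaled to total counts or with 0.5 h as the baseline, the KIF18A fall without 0 h replicate 1 and the AURKB fall without 0 h replicate 2.

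**Figure D2:**
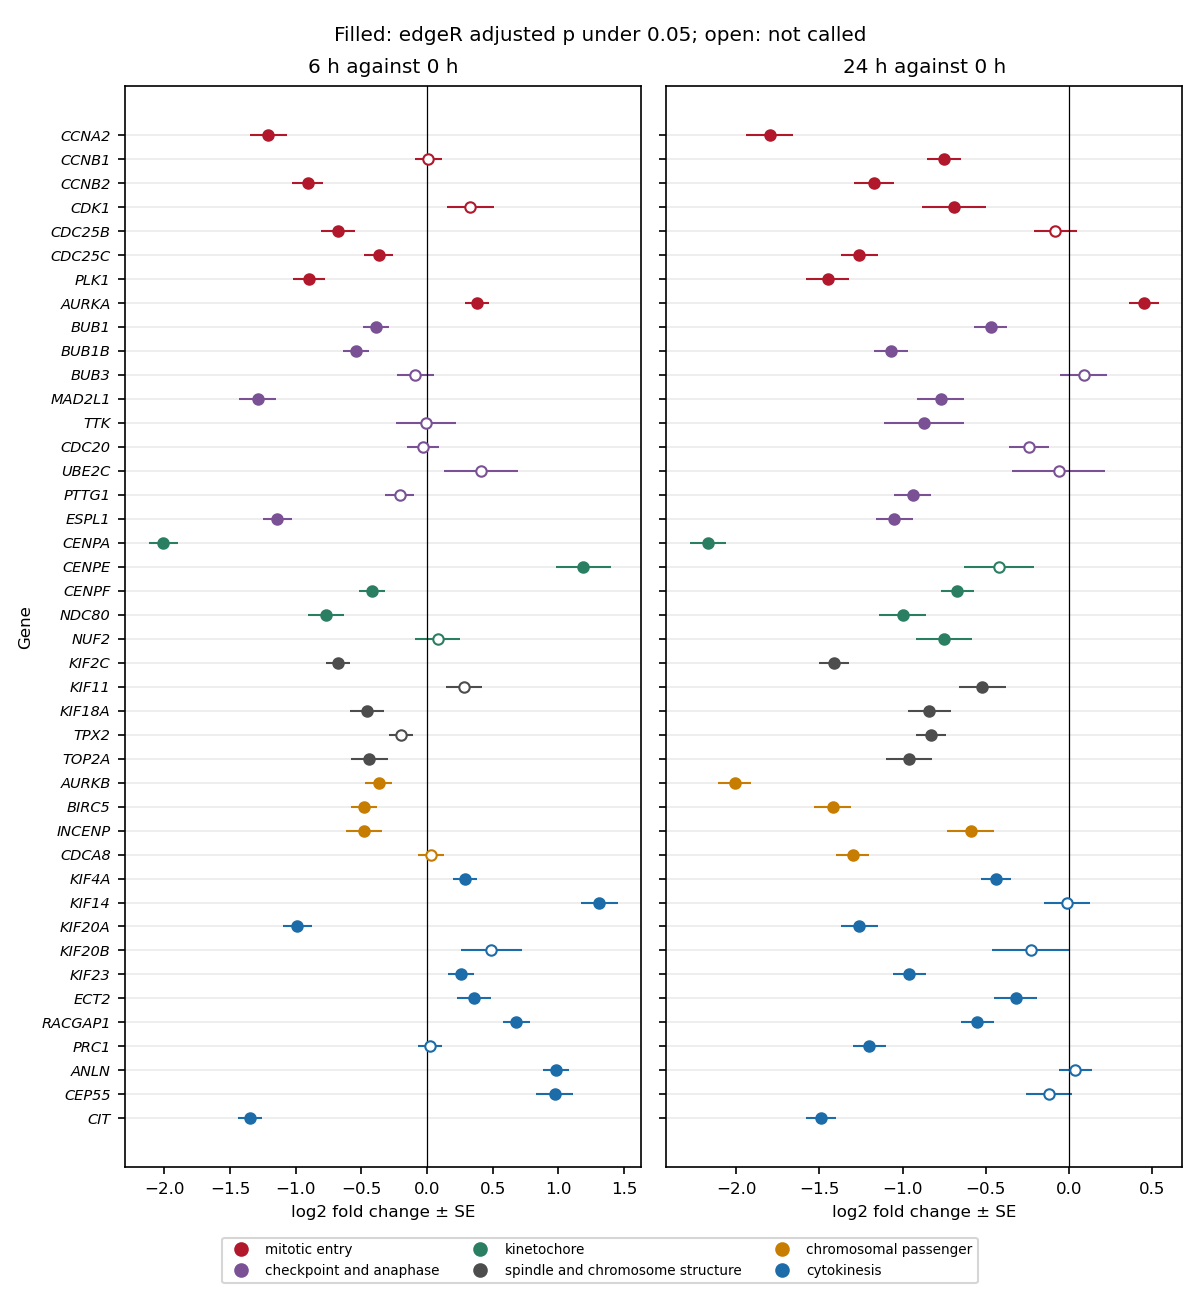
Log2 fold change with its standard error for each of 42 genes at 6 h (left) and 24 h (right) against 0 h, coloured by role; filled points passed the edgeR test at an adjusted p under 0.05. At 6 h 7 of 11 cytokinesis genes are filled on the right of 0 and 5 of 8 entry genes on the left, and at 24 h the filled points lie left of 0 except for AURKA.

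Among the entry genes, CCNA2 (cyclin A2, which acts in DNA replication and early mitosis) fell most. It (ENSG00000145386, chromosome 4, 121816444 to 121823933) had 186 and 138 CPM at 0 h, 206 and 204 after 0.5 h, 194 and 223 after 1.5 h and 167 and 166 after 3 h. It then had 65.7 and 73.6 after 6 h, 43.4 and 49.6 after 24 h, 65.3 and 71.2 after 48 h and 66.9 and 57.2 after 72 h. Its libraries from 6 h onward all lay below every earlier one. The log2 fold change was −1.21 (SE 0.14, adjusted p 3.63e-06 by edgeR) at 6 h, −1.80 (SE 0.14, adjusted p 9.67e-08 by edgeR) at 24 h and −1.38 (SE 0.14, adjusted p 1.11e-06 by edgeR) at 72 h. PLK1, the kinase that drives entry, spindle assembly and exit, followed a similar course. It (ENSG00000166851, chromosome 16, 23677656 to 23690367) had 148 and 179 CPM at 0 h, 145 and 145 after 0.5 h, 157 and 170 after 1.5 h and 179 and 156 after 3 h. It then had 84.3 and 91 after 6 h, 55.4 and 64.4 after 24 h, 77.9 and 86.9 after 48 h and 66 and 79.3 after 72 h. The log2 fold change was −0.90 (SE 0.12, adjusted p 2.67e-05 by edgeR) at 6 h and −1.45 (SE 0.13, adjusted p 3.34e-07 by edgeR) at 24 h, and an antisense gene overlaps 11.6% of its exon bases. CCNB2 (cyclin B2) fell to 53% of its 0 h level at 6 h (−0.91, edgeR adjusted p 1.22e-05).

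The cyclin and kinase that define mitotic entry were not called at 6 h. CCNB1 (cyclin B1) had 129 and 133 CPM at 0 h, 133 and 132 after 6 h, 77.2 and 78.7 after 24 h and 99.9 and 83.4 after 72 h, which gave 0.01 (SE 0.10, adjusted p 0.922 by edgeR) at 6 h and −0.75 (SE 0.10, adjusted p 2.12e-05 by edgeR) at 24 h. With libraries scaled to total counts it was called lower at 6 h (−0.35, adjusted p 0.00112 by edgeR). CDK1 (ENSG00000170312, chromosome 10, 60778331 to 60794852) had 182 and 126 CPM at 0 h, 214 and 198 after 0.5 h, 216 and 225 after 1.5 h and 266 and 219.8 after 3 h. It then had 198 and 190 after 6 h, 98.3 and 92.5 after 24 h, 160 and 139 after 48 h and 170.2 and 113 after 72 h. Its 6 h libraries lay above both 0 h libraries, but the difference of 0.33 (SE 0.18, adjusted p 0.14 by edgeR) was not called. It was called without 0 h replicate 1 (0.63), and its sign turned with libraries scaled to total counts or with 0.5 h as the baseline. At 24 h both CDK1 libraries lay below all others, at −0.69 (SE 0.19, adjusted p 0.00579 by edgeR); without 0 h replicate 1 the call was lost (−0.39, edgeR adjusted p 0.0966). The phosphatase genes that activate CDK1 differed from each other. CDC25B had 47.2 and 58 CPM at 0 h, 33 and 32.7 after 6 h, 48.4 and 51.2 after 24 h and 42.3 and 44.5 after 72 h; it fell at 6 h (−0.68 (SE 0.13, adjusted p 0.000488 by edgeR)) and was higher at 24 h than at 6 h by 0.60 (SE 0.13, adjusted p 0.00155 by edgeR). CDC25C fell to 41.6% of its 0 h level at 24 h and was at 47.7% at 72 h.

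**Figure D3:**
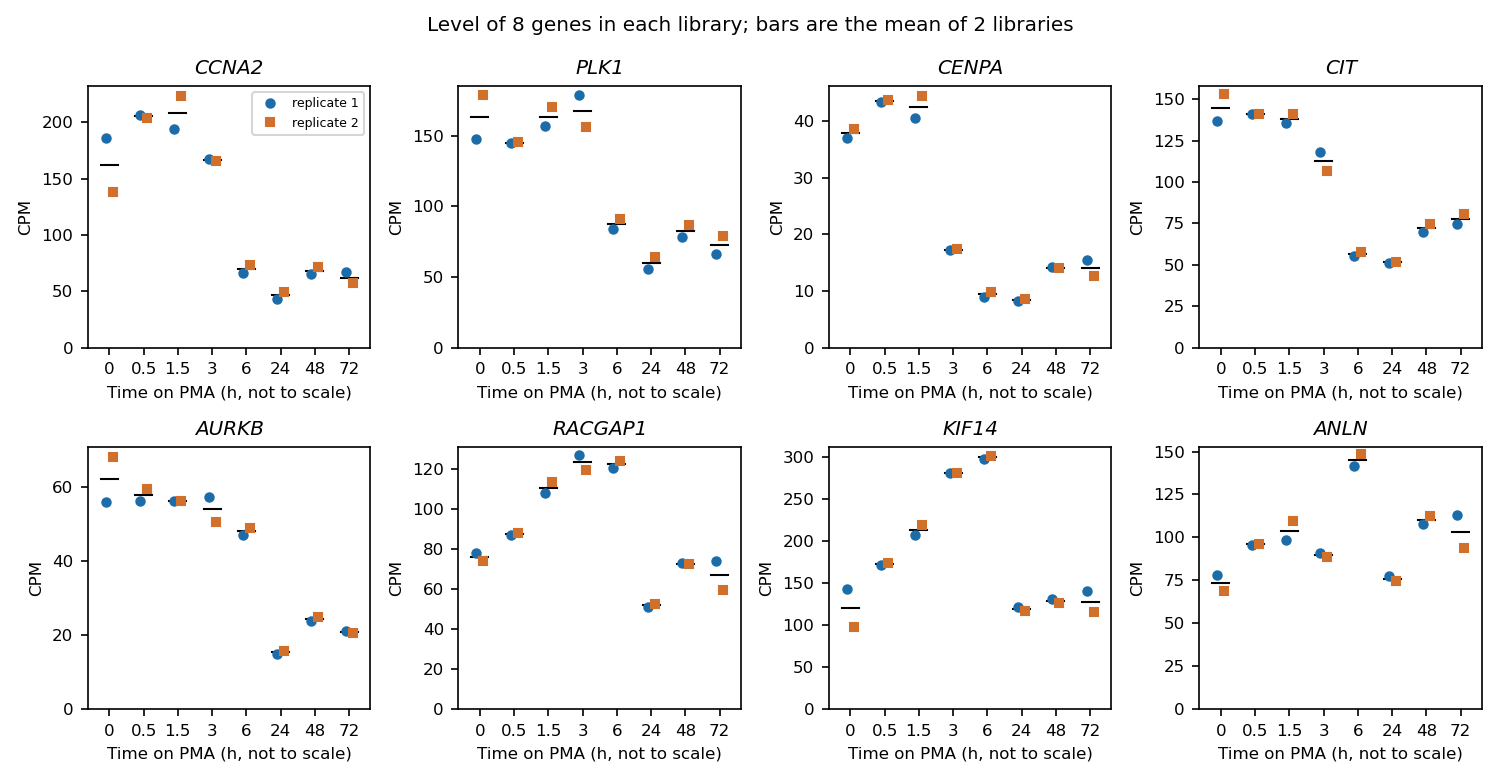
Level in CPM of CCNA2, PLK1, CENPA, CIT, AURKB, RACGAP1, KIF14 and ANLN in each library against time on PMA (categories, not to scale); points are single libraries by replicate and bars the mean of 2. CENPA is low from 3 h onward, CCNA2, PLK1 and CIT from 6 h, and AURKB from 24 h. RACGAP1, KIF14 and ANLN are near their highest at 6 h and lower again at 24 h.

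Among the cytokinesis genes, the rises at 6 h that kept their call in every one of 13 alternatives were those of KIF14, RACGAP1, ANLN and CEP55. KIF14 (a motor that brings citron kinase to the midbody, ENSG00000118193, chromosome 1, 200551497 to 200620734) had 143 and 97.6 CPM at 0 h, 172 and 174 after 0.5 h, 207 and 219 after 1.5 h and 281 and 281 after 3 h. It then had 298 and 301 after 6 h, 122 and 117 after 24 h, 131 and 126 after 48 h and 140.2 and 116 after 72 h. The 3 h and 6 h libraries were the highest, and the 24 h libraries lay between the 0 h libraries. The log2 fold change was 1.31 (SE 0.14, adjusted p 2.46e-06 by edgeR) at 6 h and −0.01 at 24 h (edgeR adjusted p 0.946). At 6 h it was 1.62 without 0 h replicate 1 and 0.80 with 0.5 h as the baseline. ANLN (anillin, ENSG00000011426, chromosome 7, 36389806 to 36453791) had 78.2 and 69 CPM at 0 h, 95.7 and 96.1 after 0.5 h, 98.4 and 109.5 after 1.5 h and 90.7 and 88.7 after 3 h. It then had 142 and 148 after 6 h, 77.3 and 74.4 after 24 h, 108 and 112 after 48 h and 113 and 94 after 72 h. Its 6 h libraries stood above all others, at 0.98 (SE 0.10, adjusted p 1.39e-06 by edgeR) against 0 h.

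RACGAP1, the GTPase-activating subunit of centralspindlin (ENSG00000161800, chromosome 12, 49976923 to 50033136), had 78 and 73.9 CPM at 0 h, 87.1 and 87.8 after 0.5 h, 108 and 113 after 1.5 h and 127 and 119 after 3 h. It then had 120.4 and 124 after 6 h, 51.2 and 52.4 after 24 h, 72.9 and 72.3 after 48 h and 74.1 and 59.6 after 72 h. It rose at 6 h by 0.68 (SE 0.10, adjusted p 2.93e-05 by edgeR) and was lower than at 0 h by 24 h (−0.55 (SE 0.10, adjusted p 0.000233 by edgeR)), when both libraries lay below all others. CEP55 had 19.3 and 13.8 CPM at 0 h, 23.3 and 21.7 after 0.5 h, 19.97 and 23.3 after 1.5 h and 19.5 and 18.9 after 3 h. It then had 30.6 and 34 after 6 h, 14.8 and 15.7 after 24 h, 22.4 and 21.3 after 48 h and 23 and 20.3 after 72 h, and its 6 h libraries were above all others (0.97 (SE 0.14, adjusted p 5.04e-05 by edgeR)). KIF23, the motor subunit of centralspindlin, had 61.1 and 53.3 CPM at 0 h, 67.3 and 70.1 after 6 h, 28.1 and 30.6 after 24 h and 46.7 and 40.2 after 72 h. Its rise of 0.26 at 6 h and those of ECT2 (0.36) and KIF4A (0.29) were small, and all were lost with libraries scaled to total counts or with 0.5 h as the baseline. The KIF23 and ECT2 calls were also lost without 0 h replicate 2 or with the GC trend removed. PRC1, which crosslinks the antiparallel microtubules of the central spindle, had 157 and 165 CPM at 0 h, 162 and 166 after 6 h, 65.5 and 74.5 after 24 h and 90.04 and 78.9 after 72 h, at 0.02 at 6 h and −1.20 (SE 0.10, adjusted p 1.34e-07 by edgeR) at 24 h; another annotated gene shares 57.6% of its exon bases on the same strand. KIF20B was at 0.49 at 6 h and was not called (edgeR adjusted p 0.0833).

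CIT and KIF20A were the cytokinesis genes that went against the others at 6 h. CIT, the citron kinase that organises the midbody (ENSG00000122966, chromosome 12, 119685790 to 119877291), had 137 and 153 CPM at 0 h, 141 and 141 after 0.5 h, 136 and 141 after 1.5 h and 118 and 107 after 3 h. It then had 55.6 and 58 after 6 h, 51 and 51.9 after 24 h, 69.9 and 74.5 after 48 h and 74.8 and 80.4 after 72 h. It fell with the entry genes at 6 h (−1.35 (SE 0.09, adjusted p 1.58e-08 by edgeR)), was at −1.49 (SE 0.09, adjusted p 6.34e-09 by edgeR) at 24 h, and its 72 h libraries were above its 24 h libraries by 0.59 (SE 0.09, adjusted p 0.000257 by edgeR). KIF20A, a motor that carries the passenger complex to the central spindle, had 47.4 and 57.3 CPM at 0 h, 24.3 and 28.2 after 6 h, 19.98 and 23.6 after 24 h and 25.8 and 25.1 after 72 h. Its log2 fold change was −0.99 (SE 0.11, adjusted p 4.53e-06 by edgeR) at 6 h and −1.04 at 72 h. Both falls at 6 h kept their call in every one of 13 alternatives.

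How far entry and cytokinesis genes were apart at 6 h depended on the baseline and on the libraries kept. Scaling to total counts moved both medians down by a similar amount. The entry median was the lower one in each alternative for which the medians were compared. The fit of only the libraries compared was not among these. The difference of the medians was −0.88 as reported and lay between −1.15 and −0.62 when 1 library was left out. Scaled to total counts, the median of all genes moved to −0.35 at 6 h, −0.26 at 24 h and −0.19 at 72 h. Under that scaling at 6 h the entry genes had 0 higher and 6 lower (median −0.89) and the cytokinesis genes 4 higher and 3 lower (−0.01). With 0.5 h as the baseline the cytokinesis genes had 4 higher and 2 lower (0.08) and the entry genes 0 and 5 (−0.50). With the GC trend removed the cytokinesis genes had 5 higher and 2 lower (0.19). GC content also differed between these genes. It was 38.1% for KIF14, 40% for ANLN, 41.3% for CEP55 and 45.2% for RACGAP1, which rose. For KIF20A and CIT, which fell, it was 48.5% and 51.3%, the highest of the cytokinesis genes. The entry genes that fell had from 42.1% (CCNA2) to 58.8% (CDC25B). The part of GC content in the difference between the roles was not tested. Without 0 h replicate 2 their median was 0.18. The shares of all genes called under these alternatives are not given here, so the counts are not set against a background. Within replicate 1 alone the medians were −0.41 for entry and 0.23 for cytokinesis, and within replicate 2 alone −0.63 and 0.51.

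**Figure D4:**
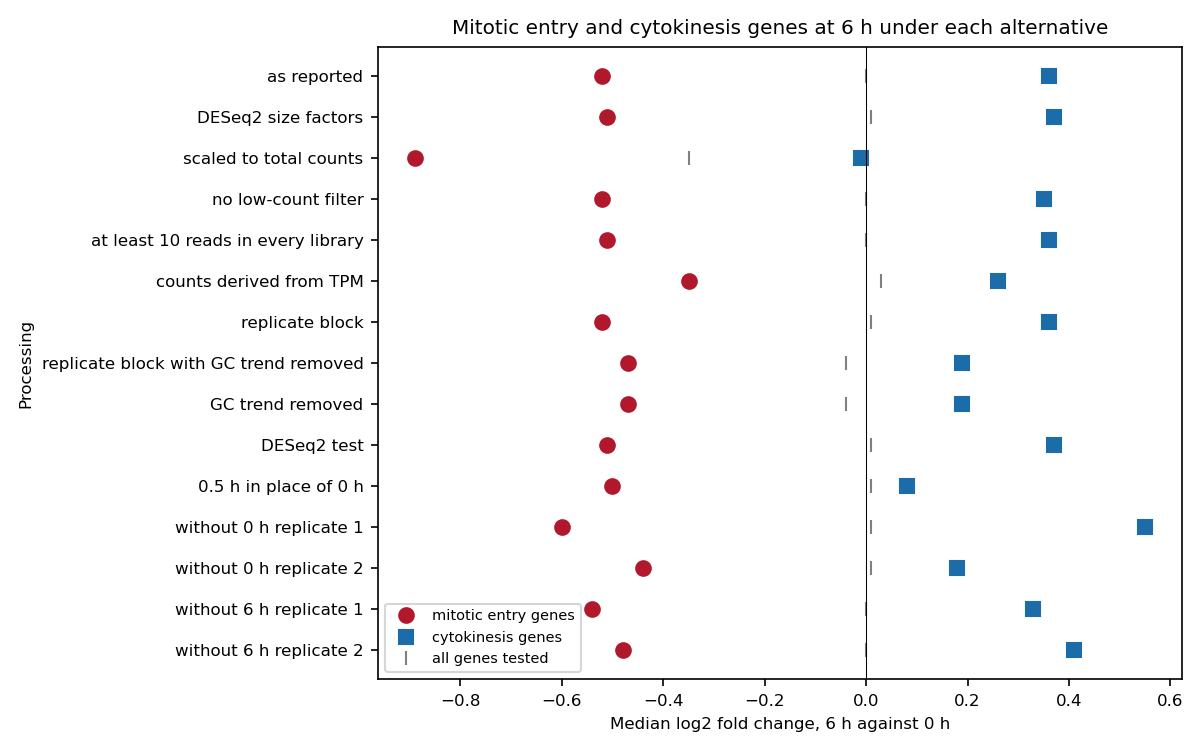
Median log2 fold change at 6 h against 0 h under processing alternatives. Shown are the 8 mitotic entry genes (circles), the 11 cytokinesis genes (squares) and all genes tested (ticks). The fit of only the libraries compared is not shown. The circles lie left of the squares in each row, and scaling to total counts moves all 3 to the left.

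At 24 h the fall took in members of every role. Against 0 h 32 members fell and 1, AURKA, rose (0.45 (SE 0.09, adjusted p 0.000573 by edgeR)), where 26.6% of all genes were called lower and 31.7% higher. The falls were 6 of 8 entry genes (median −0.96), 6 of 9 checkpoint and anaphase genes (−0.77), 4 of 5 kinetochore genes (−0.75), all 5 spindle and chromosome genes (−0.84), all 4 passenger genes (−1.36) and 7 of 11 cytokinesis genes (−0.44). Of the 32 falls, 28 kept their call in every one of 13 alternatives. Those of CDK1, TTK and KIF11 were lost without 0 h replicate 1, and that of ECT2 without 0 h replicate 1 or in the DESeq2 test, among others. With 0.5 h as the baseline all 11 cytokinesis genes were called lower at 24 h (median −0.76). The share of all genes called under that baseline is not given here.

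The fold changes from 6 to 24 h did not involve the 0 h libraries. The spread behind their p-values was estimated from all 16 libraries, the 0 h libraries included. From 6 to 24 h 27 members fell and 2 rose, against 56.6% of all genes called, 25.8% lower and 30.8% higher. Falls numbered 9 of 11 cytokinesis genes (median −0.94) and 5 of 8 entry genes (−0.57). AURKB and CENPE fell most. AURKB, the kinase of the passenger complex (ENSG00000178999, chromosome 17, 8204733 to 8210600), had 56 and 67.9 CPM at 0 h, 56.2 and 59.4 after 0.5 h, 56.1 and 56.1 after 1.5 h and 57.3 and 50.6 after 3 h. It then had 47 and 48.9 after 6 h, 15 and 15.8 after 24 h, 23.6 and 24.8 after 48 h and 21 and 20.4 after 72 h, and dropped between 6 and 24 h by 1.64 on the log2 scale (SE 0.10, edgeR adjusted p 3.18e-08). All 6 of its libraries from 24 h onward lay below all earlier ones. CENPE, a motor that moves chromosomes to the spindle equator, had 141 and 73.6 CPM at 0 h, 175 and 184 after 0.5 h, 195 and 229 after 1.5 h and 228 and 253 after 3 h. It then had 237 and 252 after 6 h, 76.5 and 84.3 after 24 h, 103 and 109 after 48 h and 111 and 93.2 after 72 h. Its 24 h libraries were all below its 6 h libraries, at −1.60 (SE 0.21, adjusted p 2.77e-05 by edgeR), while its rise at 6 h (1.19 (SE 0.21, adjusted p 0.000259 by edgeR)) was not called with 0.5 h as the baseline (0.45, edgeR adjusted p 0.0862). CDC25B rose as given above, and MAD2L1, a checkpoint protein that binds CDC20, rose by 0.52 (SE 0.14, adjusted p 0.00652 by edgeR), a call lost without 6 h replicate 1 (0.49).

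Checkpoint and anaphase genes fell less evenly. MAD2L1 had 75.4 and 59.9 CPM at 0 h, 84.5 and 78.8 after 0.5 h, 69.2 and 80.9 after 1.5 h and 58.5 and 58.2 after 3 h. It then had 27.5 and 28 after 6 h, 40.3 and 39.1 after 24 h, 53 and 48 after 48 h and 52.8 and 39.6 after 72 h, with its lowest libraries at 6 h (−1.29 (SE 0.14, adjusted p 2.61e-06 by edgeR)). BUB1B, the checkpoint protein BubR1, was at −1.07 (SE 0.10, adjusted p 5.89e-07 by edgeR) at 24 h and shares 10.2% of its exon bases with a readthrough gene on the same strand. ESPL1 fell at 6 h (−1.14, edgeR adjusted p 9.17e-07) and was at 37.8% of its 0 h level at 72 h. PTTG1 fell to 52% at 24 h. BUB1 fell to 72.3% at 24 h and was at 94.2% at 72 h. TTK was at 99.1% at 6 h and 54.9% at 24 h. Its 0 h libraries were far apart (77.5 and 36.9 CPM), and at 6 h it was at 59.7% of its 0.5 h level. Over 13 alternatives its log2 fold change at 6 h ran from −0.74 to 0.62. CDC20 had 85.8 and 106 CPM at 0 h, 97.4 and 90.2 after 6 h, 77.6 and 84.9 after 24 h and 92.8 and 89.97 after 72 h and was called at none of the times against 0 h. BUB3, the checkpoint member with the highest mean CPM, had 166 and 145 CPM at 0 h, 152 and 139.7 after 6 h, 168 and 163 after 24 h and 223 and 164 after 72 h, at −0.09, 0.09 and 0.31 against 0 h, none of them called. The 72 h value (adjusted p 0.0629 by edgeR) was called higher in 7 of 13 alternatives, among them DESeq2 (0.37). UBE2C fell at 72 h, from 0.737 and 1.16 CPM to 0.279 and 0.281 CPM (−1.74 (SE 0.33, adjusted p 0.000382 by edgeR)), in the lowest range of counts among the members, so that this fall describes the reads counted and may not describe the gene.

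Kinetochore and spindle genes were mostly low at 24 h. CENPF, a large kinetochore and nuclear matrix protein with the highest mean CPM in its role, had 332 and 273 CPM at 0 h, 387 and 398 after 0.5 h, 418 and 455 after 1.5 h and 285 and 316 after 3 h. It then had 219 and 232 after 6 h, 196 and 184 after 24 h, 289.7 and 298 after 48 h and 323 and 296 after 72 h; it fell at 24 h (−0.67 (SE 0.10, adjusted p 8.9e-05 by edgeR)) and at 72 h stood among its 0 h values (0.03, edgeR adjusted p 0.803). NDC80 and NUF2, which form the microtubule-binding end of the kinetochore, fell to 49.9% and 59.5% of their 0 h levels at 24 h. At 6 h NDC80 had fallen (−0.77), while NUF2 was at 0.08 and was not called. Relative to 0.5 h, NDC80 was at 46.3% and NUF2 at 74% at 6 h. Over 13 alternatives the NUF2 value at 6 h ran from −0.43 to 0.43. KIF2C had 234 and 257 CPM at 0 h, 152 and 156 after 6 h, 89.3 and 95.6 after 24 h and 118 and 106 after 72 h and fell by 24 h to 37.7% (−1.41 (SE 0.09, adjusted p 1.95e-08 by edgeR)). TOP2A, which untangles sister chromatids, had 666 and 526 CPM at 0 h, 437 and 439 after 6 h, 309.6 and 305 after 24 h and 534 and 393 after 72 h, with −0.44 (SE 0.14, adjusted p 0.0128 by edgeR) at 6 h and −0.96 (SE 0.14, adjusted p 4.64e-05 by edgeR) at 24 h; the 6 h call was lost without 0 h replicate 1 (−0.26) and when either 6 h library was omitted (−0.43 and −0.44). TPX2, which activates AURKA on the spindle, fell to 56.2%, KIF18A, which limits chromosome movement, to 55.7%, and KIF11, the motor that separates spindle poles, to 69.5% at 24 h.

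In the chromosomal passenger complex all 4 genes fell at 24 h. BIRC5 (survivin), the member with the highest mean CPM, had 103 and 124 CPM at 0 h, 82.5 and 80.5 after 6 h, 40.6 and 44.4 after 24 h and 62.4 and 58.2 after 72 h, with −0.48 (SE 0.10, adjusted p 0.00126 by edgeR) at 6 h and −1.42 (SE 0.11, adjusted p 7.41e-08 by edgeR) at 24 h. CDCA8 (borealin) was at 102% of its 0 h level at 6 h and 40.5% at 24 h. INCENP, the scaffold of the complex, fell least, to 66.3% (−0.59 (SE 0.14, adjusted p 0.00281 by edgeR)), and its 6 h call (−0.48) was lost without 0 h replicate 2 or 6 h replicate 1, or with 0.5 h as the baseline. Counting the passenger genes with the cytokinesis genes brought the difference between the entry and cytokinesis medians at 24 h from −0.52 to −0.37.

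At 48 and 72 h fewer members were called lower than at 24 h. At 48 h AURKA, ANLN and CEP55 were higher than at 0 h and 22 members lower, where 54.3% of all genes were called, 30.2% higher and 24.1% lower. All 3 rises lost their call with 0.5 h as the baseline, that of CEP55 also without 0 h replicate 2, and those of AURKA and CEP55 also with libraries scaled to total counts. At 72 h 2 were higher and 25 lower, where 58.6% of all genes were called, 31.7% higher and 26.9% lower. The entry genes had 5 of 8 lower at 72 h (median −0.73) and the cytokinesis genes 4 of 11 lower and 2 higher (−0.14). Without 0 h replicate 2 the difference between these medians was −0.33 at 72 h and −0.18 at 48 h, in place of −0.58 and −0.52. The 2 higher genes at 72 h were ANLN (0.49 (SE 0.10, adjusted p 0.000759 by edgeR)) and CEP55 (0.39 (SE 0.14, adjusted p 0.0316 by edgeR)). Neither was called with 0.5 h as the baseline (0.11 and −0.06), and CEP55 was also not called with the GC trend removed, scaled to total counts, or with 0 h replicate 2 or 72 h replicate 1 left out. AURKB was the passenger gene with the largest fall at 72 h (−1.58 (SE 0.10, adjusted p 1.56e-08 by edgeR)), CENPA was at −1.42 (SE 0.11, adjusted p 7.07e-08 by edgeR), KIF2C at −1.13 (SE 0.09, adjusted p 1.51e-07 by edgeR) and BIRC5 at −0.91. CDK1 (−0.12) and KIF14 (0.09) were not called at 72 h, and TOP2A at −0.36 lost its call when 0 h replicate 1 (−0.18) or 72 h replicate 2 (−0.15) was left out.

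The return was tested directly between 24 and 72 h. No 0 h library entered these fold changes, but the spread was again estimated from all 16 libraries. In these same data 24 h was the time of the lowest mean for 35 of the 42 members, which favours rises from there. From 24 to 72 h 20 members rose and 2 fell, against 13.9% of all genes called higher and 12.4% lower. The rises included 6 of 11 cytokinesis genes, 4 of 5 spindle and chromosome genes, 3 of 4 passenger genes, 3 of 5 kinetochore genes and 2 of 8 entry genes. CENPA rose most (0.75 (SE 0.11, adjusted p 0.000265 by edgeR)), followed by CENPF (0.70 (SE 0.10, adjusted p 0.000272 by edgeR)), CIT and TOP2A (0.59 (SE 0.14, adjusted p 0.00613 by edgeR)). UBE2C and ESPL1 fell further. With 24 h replicate 1 left out 10 members were called, as were 10 with 72 h replicate 1 left out, against 14 when 24 h replicate 2 was omitted and 37 with the GC trend of each library removed. Among members the second 72 h library lay below the first in 36 of 42 genes, with a median difference of −0.22.

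Fold changes between 1.5 and 72 h also held no 0 h library, while the spread came from all 16 libraries. In these same data 1.5 h was the time of the highest mean for 18 members, which favours falls from there. In this comparison 37 members fell and none rose. Among all genes 26.2% were called lower and 31% higher. The median was −1.04 for entry genes and −0.73 for cytokinesis genes. ANLN (−0.01) and CEP55 (0.00) were the cytokinesis genes not called in this comparison, with edgeR adjusted p values of 0.958 and 0.995. ANLN stood at 98.4 and 109.5 CPM at 1.5 h and 113 and 94 CPM at 72 h. CDC25B, BUB3 and CDC20 were the others not called.

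The other genes of the contractile ring and of abscission were listed by function, and their difference from the entry genes was not tested. Of all genes tested, 27.8% were called higher and 29.4% lower after 6 h. The shares were 31.7% higher and 26.6% lower after 24 h, and 31.7% higher and 26.9% lower after 72 h. Of 18 contractile ring genes 12 rose and 3 fell at 6 h (median 0.53), 11 rose and 5 fell at 24 h (0.56), and 11 rose and 4 fell at 72 h (0.49). MYH9, the non-muscle myosin heavy chain IIA, had 242 and 282 CPM at 0 h, 235 and 225 after 0.5 h, 289 and 282 after 1.5 h and 565 and 444 after 3 h. It then had 946 and 1013 after 6 h, 739 and 788 after 24 h, 1073 and 1131 after 48 h and 1103 and 1193 after 72 h and rose by 1.90 (SE 0.12, adjusted p 1.12e-08 by edgeR) at 6 h and 2.13 (SE 0.12, adjusted p 3.71e-09 by edgeR) at 72 h. The 24 h, 48 h and 72 h libraries of MYH9 all lay above its 3 h libraries. RHOA, ARHGEF2, MYH10 and DIAPH3 are given for their known part in the ring and were picked after their values were seen. ARHGEF2, an exchange factor for RHOA, had 408 and 462 CPM at 0 h, 189.6 and 205 after 6 h, 296 and 322 after 24 h and 292 and 314 after 72 h and fell at 6 h (−1.14 (SE 0.10, adjusted p 2.45e-07 by edgeR)). MYH10, the IIB heavy chain, had 147 and 152 CPM at 0 h, 122 and 139 after 6 h, 105 and 106 after 24 h and 130.3 and 128 after 72 h, with −0.20 at 6 h (edgeR adjusted p 0.0605) and −0.50 (SE 0.09, adjusted p 0.000198 by edgeR) at 24 h. RHOA was at 0.48 at 6 h, where it was called higher, and −0.12 at 72 h, where it was not. DIAPH3, a formin of the ring, rose at 6 h (0.63) and was lower than at 0 h by 24 h (−0.77, edgeR adjusted p 2.34e-05).

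Of 14 abscission genes, which encode the ESCRT proteins that CEP55 recruits and their partners, 6 rose and 1 fell at 6 h (median 0.05), 11 rose and none fell at 24 h (0.58), and 7 rose and none fell at 72 h (0.32). CHMP4B, a filament-forming ESCRT subunit, had 39.1 and 42.7 CPM at 0 h, 40.03 and 37.8 after 0.5 h, 39.2 and 41.2 after 1.5 h and 63.4 and 50.6 after 3 h. It then had 102 and 108 after 6 h, 114 and 131 after 24 h, 105 and 117 after 48 h and 108 and 117 after 72 h and rose by 1.45 (SE 0.12, adjusted p 1.14e-07 by edgeR) at 72 h. VPS4B, the ATPase that takes the filaments apart, had 25.6 and 23.3 CPM at 0 h, 62.1 and 69.1 after 6 h, 38.2 and 39.4 after 24 h and 43.6 and 39.3 after 72 h and rose by 1.42 (SE 0.10, adjusted p 3.18e-08 by edgeR) at 6 h. ESCRT proteins and actomyosin also serve cells outside mitosis, so these lists are not specific to division.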

How the data were processed

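Total RNA from 16 K562 libraries, depleted of ribosomal RNA, was sequenced by the authors. Per the submitters' processing notes, reads were trimmed with Trim Galore 0.4.3 and quantified with Salmon, and the notes name hg19 and hg38 without a role. Each deposited table gives 1 library: per the file headers, an estimated count of reads per transcript, with no normalization, and TPM, scaled by the authors' program to effective length and library. Transcripts were matched by Ensembl identifier to GENCODE 29 (GRCh38), and estimated counts were summed per gene and rounded; unmatched transcripts held 3.01 to 3.75% of reads. edgeR 4.0.16 (R 4.3.3) used TMM factors of 0.854 to 1.139, its default low-count filter, 1 fit of all 16 libraries, quasi-likelihood tests and Benjamini-Hochberg adjustment over 17559 genes. CPM use TMM-scaled totals, fold changes a prior count of 0.125, and SE is the unshrunk log2 fold change over the square root of F. DESeq2 1.42.0 was an alternative. A floor of 3 reads was 0.0623 to 0.128 CPM, for counting error only. The test was checked on simulated counts drawn with no GC difference between replicates. That check does not cover the gap between the 0 h libraries.

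All 42 members are named. By rule, fuller values go to 2 members of each role at 6, 24 and 72 h against 0 h (the largest called change and the highest mean CPM), to the 2 largest rises and 2 largest falls from 6 to 24 h, and to members called against their role's median; further members and values were added after they had been seen. Of each other list, the genes with the largest called change at 6 h and at 72 h are named. The members, roles and lists (other entry regulators, transcription regulators, condensin and cohesion, other kinetochore, anaphase-promoting complex, contractile ring, abscission, DNA replication, markers) were chosen with earlier results of these data known. A 0.5 h baseline and values within each replicate were added after seeing the data. Promoter sequences are from RefSeq (GRCh38.p14); 7 members had no entry. The value of 1 marker gene is not reported here.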

Additional observations from a re-analysis of the deposited data

How the results depend on the processing

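Of 239 alternative values for the counts of changed members and the entry-minus-cytokinesis differences, 213 stayed within 1.5 times the count or within the replicate spread. The 0 called members at 0.5 h became 12 with no low-count filter and 4 with the DESeq2 test, and 0 to 18 when 1 library was left out (18 without 0 h replicate 1). The 17 at 1.5 h became 11 with counts derived from TPM, 3 with only the libraries compared, 1 with the 0.5 h baseline and 4 to 22 without 1 library. The 17 at 3 h became 7 with only the libraries compared and 10 to 20 without 1 library. The 22 from 24 to 72 h became 14 with counts derived from TPM, 14 with only the libraries compared, 37 with the GC trend removed, 38 with the replicate block and the GC trend removed, and 10 to 25 without 1 library. Leaving out 1 library gave 22 to 33 members at 6 h, 32 to 35 by 24 h, 20 to 30 by 48 h, 27 to 29 by 72 h, 27 to 29 from 6 to 24 h, 33 to 36 from 1.5 to 72 h and 39 to 42 at any time. The difference between entry and cytokinesis medians at 24 h (−0.52) was −0.41 with counts derived from TPM, −0.37 with passenger genes counted under cytokinesis, −0.41 within replicate 1 and −0.57 to −0.39 without 1 library. At 48 h (−0.52) it was −0.22 with the 0.5 h baseline and −0.69 to −0.18 without 1 library, and at 72 h (−0.58) −0.33 with passenger genes under cytokinesis and −0.72 to −0.33 without 1 library; at 6 h it was −1.15 to −0.62. Same-numbered replicates share only a number in the labels: over 28 pairs of time points the correlation of their deviations ran from −0.3 to 0.6, with 24 above 0.1. The replicate number as a block gave 30 called members at 6 h, 33 at 24 h and 28 at 72 h, in place of 29, 33 and 27; among fully described members it brought CDK1 at 6 h (0.35) and BUB3 at 72 h (0.31) under the threshold and ended no call. Of 685 alternative values for 46 results of single members, 608 kept direction and side of the threshold, 29 lost the call, 20 gained it and 28 turned sign. All 28 were of values that were not called, except CEP55 at 72 h. CDK1 at 6 h was −0.04 with total counts and −0.09 with the 0.5 h baseline. CDK1 at 72 h ranged from −0.44 to 0.18 with 1 library left out, and turned positive without 0 h replicate 1 (0.18) or 72 h replicate 2 (0.15). BUB3 at 6 h was 0.01 with 0 h replicate 1 left out (−0.19 to 0.01 over all such omissions). BUB3 at 24 h was −0.16 with total counts, −0.10 with the GC trend removed with or without the replicate block, −0.13 with the 0.5 h baseline and −0.01 to 0.20 with 1 library left out (lowest without 0 h replicate 2). KIF14 at 24 h was 0.00 with DESeq2 size factors and in the DESeq2 test, 0.02 with counts derived from TPM and −0.26 to 0.30 with 1 library left out (highest without 0 h replicate 1). CENPF at 72 h was −0.13 with total counts, −0.15 with the GC trend removed with or without the block, −0.01 with only the libraries compared, −0.34 with the 0.5 h baseline, −0.10 when 0 h replicate 2 was omitted and −0.03 when 72 h replicate 1 was. KIF14 at 72 h was −0.08 with total counts, −0.12 with the GC trend removed with or without the block, −0.43 with the 0.5 h baseline, and −0.16 to 0.39 with 1 library left out, below 0 when 0 h replicate 2 or 72 h replicate 1 (−0.06) was omitted. CEP55 at 72 h was −0.06 with the 0.5 h baseline. The causes were not tested. Where leaving out a library left 1 sample at a time point, that sample was assumed to vary like the others. Depth limits UBE2C most, the member with the fewest reads.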

Other observations

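Lists of neighbouring pathways were taken by function, and differences between the lists were not tested. Of all genes tested, 27.8% were called higher and 29.4% lower after 6 h. The shares were 31.7% higher and 26.6% lower after 24 h, and 31.7% higher and 26.9% lower after 72 h, and several counts below lie near these shares. Of 20 DNA replication genes 13 fell and 3 rose at 6 h (median −0.47), and 17 fell and 2 rose both at 24 h (−1.19) and at 72 h (−0.86). CDT1, which licenses replication origins, had 234 ± 51 CPM (SD, n = 2) at 0 h and 56.3 ± 14 CPM at 72 h and fell by 2.05 (SE 0.19, adjusted p 4.44e-07 by edgeR) on the log2 scale. GINS3, a subunit of the replicative helicase, rose against its list at 6 h, from 21.8 ± 2.16 CPM to 186 ± 5.87 CPM, or 3.09 (SE 0.10, adjusted p 1.43e-11 by edgeR). Of 20 transcription regulators of mitotic genes 6 rose and 6 fell at 6 h, 4 rose and 10 fell at 24 h, and 5 rose and 8 fell at 72 h. E2F2, an activator of cell cycle genes, had 68.9 and 80.8 CPM at 0 h, 67 and 65.7 after 0.5 h, 58.7 and 62 after 1.5 h and 18.5 and 16.5 after 3 h. It then had 9.39 and 10.3 after 6 h, 13.1 and 13.1 after 24 h, 26.7 and 25.5 after 48 h and 19.5 and 21.2 after 72 h. Its libraries from 3 h onward lay below all earlier ones, at −2.92 (SE 0.11, adjusted p 6.69e-11 by edgeR) after 6 h and −1.88 after 72 h. MYBL2 and FOXM1, activators of late cell cycle promoters, were picked after their values were seen. MYBL2 was at −0.12 (SE 0.12, adjusted p 0.454 by edgeR) after 6 h and fell by 24 h (−2.08 (SE 0.13, adjusted p 1.13e-08 by edgeR)). FOXM1 fell at 6 h (−0.75 (SE 0.11, adjusted p 4.23e-05 by edgeR)) and 24 h (−1.11). The genes of the NF-Y subunits, also picked after their values were seen, differed from each other. NFYA had 26.3 and 26.91 CPM at 0 h, 89.93 and 90.45 after 6 h and 90.08 and 94.84 after 24 h. NFYB had 29.37 and 19.99 CPM at 0 h and 15.28 and 16.25 after 6 h. NFYC had 55.86 and 66.53 CPM at 0 h and 45.33 and 46.48 after 6 h.

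Of 14 other entry regulators 5 rose and 5 fell at 6 h, 1 rose and 10 fell at 24 h, and 1 rose and 9 fell at 72 h. PBK, a mitotic kinase, was at −1.77 at 6 h and −1.66 at 72 h. WEE1, the kinase that holds CDK1 inactive, was picked after its values were seen. It rose from 142.5 ± 17.7 CPM (SD, n = 2) to 334 ± 15.9 CPM at 6 h (1.23 (SE 0.12, adjusted p 8.8e-07 by edgeR)) and was not called at 24 h (0.20). Of 19 condensin and cohesion genes 7 rose and 5 fell at 6 h, 2 rose and 9 fell at 24 h, and 3 rose and 9 fell at 72 h. The condensin subunit NCAPG was at 1.16 at 6 h and NCAPH, another, at −1.11 at 72 h. Of 26 other kinetochore genes 7 rose and 8 fell at 6 h, 4 rose and 15 fell at 24 h, and 4 rose and 14 fell at 72 h. CENPM was at −2.37 at 6 h and CENPH at −1.85 at 72 h. Of 17 genes of the anaphase-promoting complex 5 rose and 7 fell at 6 h, 5 rose and 5 fell at 24 h, and 3 rose and 9 fell at 72 h. ANAPC13 was at −1.51 at 6 h and CDC26 at 1.44 at 72 h.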
